A study of Microhyla fissipes with 12 samples.

Results

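In dorsal muscle of the frog Microhyla fissipes, 77 of the 468578 unigenes in the deposited table had an FPKM of at least 1000 in each of the 12 libraries and a highest library under 4 times the lowest. These 77 were selected on their measured FPKM values alone. FPKM counts fragments per kilobase of a unigene and per unit of library size, so levels of different unigenes are compared here per length. A unigene is a transcript of a catalogue assembled from reads, and several unigenes can belong to a single gene. The study sampled dorsal muscle at stages 36, 40, 43 and 45 of metamorphosis (S36, S40, S43 and S45), with 3 libraries per stage that the series calls biological replicates. Tadpoles were fed spirulina powder, and the labels name no treatment or genotype, nor do they say how many animals each library holds.

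Metamorphosis of a frog is driven by thyroid hormone, and in Xenopus the dorsal muscles persist into the adult while their larval fibres are replaced. Skeletal muscle is known for a messenger RNA pool in which few transcripts dominate: those of contractile proteins, of calcium-binding proteins and of energy metabolism, next to the transcripts of ribosomal proteins that most cells hold at high levels. The table pairs no unigene with a gene name, so which of these classes the 77 belong to, and whether the tissue label matches its marker genes, was not analysed here.

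The rule used the FPKM of every library. Levels, ranges and stage differences of the 77 are therefore descriptions without a test. The words higher and lower refer to these values only, and overlap of the libraries is given in place of a p-value. In whole-tissue RNA, fewer cells of a type and less RNA per cell cannot be told apart.

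Total FPKM ranged from 1219979 to 1688307 per library. The table holds no read counts, and the depth behind each value is unknown. S45 replicates 2 and 3 were the most alike of all pairs. At a mean FPKM of 1000 or more, the SD of their log2 ratio was 0.0287, against 0.0247 expected for this pair from noise that scales with fragment number. With depth unknown, that expected value is an estimate and not a limit set by sampling. S45 replicates 2 and 3 were counted as 1 sample, so S45 has n = 2. The libraries of S36 replicate 3 and S40 replicate 1 were also close (SD 0.0553), although their labels give different stages, while the other 64 pairs lay between 0.156 and 0.646. Unigenes at an FPKM of 1 or more numbered 68062 to 87889 in the libraries of S36 and S40 and in S43 replicates 1 and 2, but 135286 in S43 replicate 3, 140066 in S45 replicate 1 and 105621 and 107969 in S45 replicates 2 and 3.

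Of the unigenes, 89 reached an FPKM of 1000 in every library, and 77 of these met the limit on range. Most were far inside that limit. The highest library was 1.47 to 3.79 times the lowest, with a median of 1.83, and was under 2 times the lowest for 50 of the 77. A further 23 lay from 2 to 3 times, and 4 lay above that, namely Cluster-199519.120534, Cluster-199519.119968, Cluster-199519.119636 and Cluster-199519.120440.

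**Figure D1:**
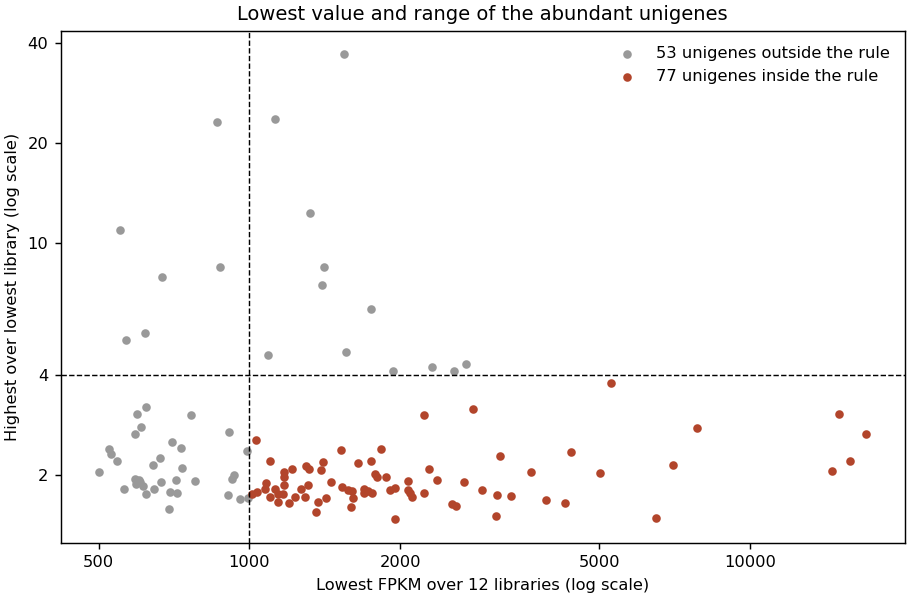
Lowest FPKM over the 12 libraries (x axis, log scale) against the ratio of highest to lowest library (y axis, log scale) for every unigene with at least 500 in each library. Dashed lines mark 1000 FPKM and a ratio of 4; the 77 unigenes inside the rule lie mostly near a ratio of 2.

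Just inside the FPKM limit were Cluster-199519.120088, with 1012.01 in its lowest library, and Cluster-199519.119574, with 1031.73. Just outside were Cluster-199519.120761 with 992.87 and Cluster-199519.121578 with 987.96. Nearest to the limit on range from inside were Cluster-199519.120534 at a ratio of 3.79 and Cluster-199519.119968 at 3.17, and from outside Cluster-199519.120137 at 4.11 and Cluster-199519.119570 at 4.13.

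The same rule applied to 11 libraries chose 77 to 83 unigenes, which include the 77 by construction, since fewer libraries make the rule easier to meet. The value in the left-out library is a measurement that this choice did not use. Without S40 replicate 3, 83 unigenes were chosen, of which 3 were under 1000 FPKM in that library; without S43 replicate 2, 1 of 78 was, and in the other 10 cases none. The left-out value lay within the range of the 11 others for 100% of the unigenes in the case of S40 replicate 1 and for 98.7% in that of S36 replicate 3. That share was 44.3% for S36 replicate 1, where 43 of 79 values lay above the range, and 51.8% for S40 replicate 3, where 32 of 83 lay below and 8 above. These 2 libraries therefore set the extremes of many of the unigenes so chosen. When either S40 replicate 1 or S36 replicate 3, the close pair, was left out, the other stayed among the 11. Likewise this was so for S45 replicates 2 and 3. For these libraries the left-out value is not independent of the choice, and nothing is read from its share.

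All 77 belonged to Cluster-199519, the cluster of the assembly that held 224984 unigenes, or 48.0% of the table. Their numbers within it were also close together. In a cluster numbered up to 224983, 76 of the 77 lay between 117316 and 122034, a run of 4719 unigenes or 1.01% of the table, and the remaining one was 198936. The ends of that run are numbers of members, so the 76 inside it are a description. All 139 unigenes with a mean FPKM of 1000 or more over the stage means, which include the 77, also belonged to Cluster-199519. Of these 139, 119, or 85.6%, lay in that run. How the assembly numbered its unigenes is not given in the sources used here.

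Together the 77 unigenes, 0.0164% of the table, held 29.9%, 29.9% and 29.5% of total FPKM in S36 replicates 1, 2 and 3. They held 27.1%, 24.8% and 29.8% in those of S40, 27.6%, 22.0% and 19.8% in those of S43, and 16.5%, 18.2% and 18.2% in those of S45. Every S45 library was below every library of the other stages, while S36 and S40 overlapped, as did S40 and S43.

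From S36 through S45 the stage means were 29.8% ± 0.23, 27.2% ± 2.51, 23.1% ± 4.05 and 17.4% ± 1.24 (SD, n = 3, but n = 2 for S45). The difference between S45 and S36 was -12.4 percentage points, but 0.80 percentage points with the rule reapplied after quantile normalization, which gives every library the same set of values. Both parts of the ratio differed between these stages. The summed FPKM of the 77 went from 373738 ± 7997 at S36 to 260085 ± 2193 at S45, a difference of -30.4% on the deposited scale, and total FPKM from 1256183 ± 31577 to 1502945 ± 119739, a difference of 19.6%. In S45 and in S43 replicate 3 a larger total went with a larger number of unigenes at an FPKM of 1 or more. This did not hold throughout. S43 replicate 1 had the fewest such unigenes, 68062, but a total of 1332754, above every S36 and S40 library. The part of the larger total in the lower share was not tested.

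**Figure D2:**
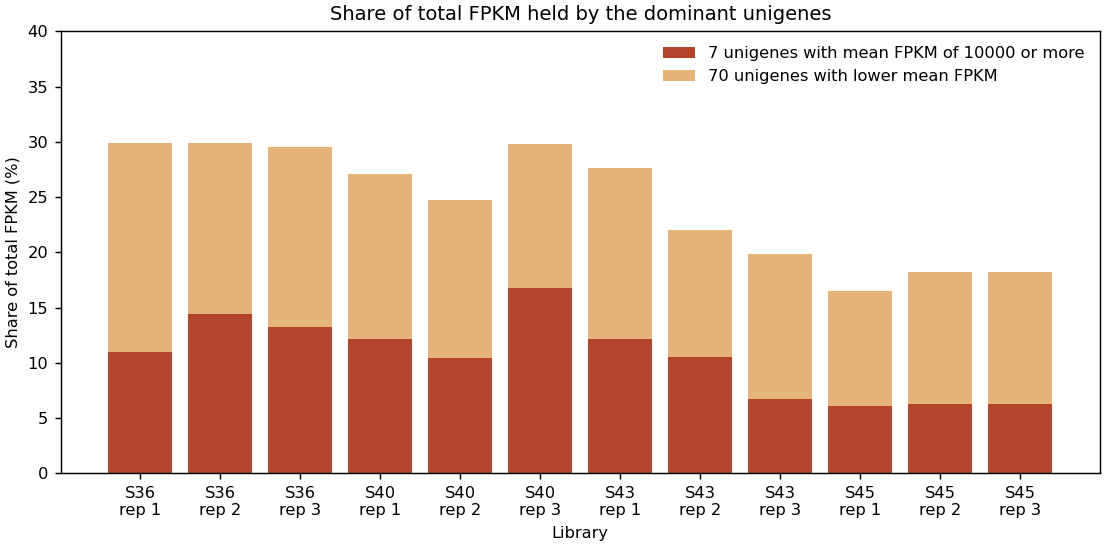
Share of total FPKM (y axis, percent) held by the 77 dominant unigenes in each library (x axis), stacked for the 7 with a mean FPKM of 10000 or more and the other 70. The 3 S36 libraries stand at 29.5% to 29.9% and the S45 libraries at 16.5% to 18.2% on the deposited scale; after quantile normalization, with the rule reapplied, the difference turned to 0.80 percentage points.

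The share of the 100 highest unigenes of each library was also lower at S45. In stage order it was 43.0% ± 3.18, 39.7% ± 6.14, 31.4% ± 5.55 and 23.1% ± 1.68 of total FPKM (SD, n = 3, but n = 2 for S45). The lower share at S45 is therefore not read as a trait of the 77, which hold most of that sum. The 77 made up 72 to 74 of the 100 highest unigenes in the S36 libraries, more than in any other library. They made up 59 to 68 in those of S40, 60 to 70 in those of S43 and 65 to 66 in those of S45. Of the summed FPKM of the 100 highest they held 68.5% ± 4.84, 66.0% ± 5.01, 70.2% ± 3.22 and 70.9% ± 0.34 in stage order (SD, n = 3, but n = 2 for S45), and these stage ranges overlapped. Their median rank among all unigenes was 53 to 57 in the S36 libraries and 58 to 61 in those of S45. In every library, 52 of the 77 were among the 100 highest, and none ranked lower than 138. Only 130 to 163 unigenes reached 1000 FPKM in a library, so the rule alone places the 77 among these. Their ranks and their number among the 100 highest are therefore descriptions of the rule, and nothing is read from them.

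Abundance within the set was uneven. Mean FPKM over the 4 stage means ran from 1345 to 30392 with a median of 2350. Mean FPKM was at least 10000 for 7 unigenes, from 5000 to 10000 for 5, from 2000 to 5000 for 34 and under 2000 for 31. The division at 10000 used below was chosen after the values were seen.

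In stage order, the 7 upper unigenes held 12.9% ± 1.73, 13.1% ± 3.26, 9.80% ± 2.78 and 6.15% ± 0.14 of total FPKM (SD, n = 3, but n = 2 for S45). The other 70 held 16.9% ± 1.78, 14.1% ± 0.97, 13.3% ± 2.02 and 11.2% ± 1.09 at the same stages. Of the -12.4 percentage points between S36 and S45, the 7 account for 54.1% and the 70 for 45.9%, and the 4 most abundant alone for 40.8%. After quantile normalization, with the 77 kept, the signs turned and the differences were 0.81 percentage points for the 7, 0.70 for the 70 and 0.83 for the 4. The near-constant share at S36 hides a shift within the set. In S36 replicates 1, 2 and 3, the 7 made up 36.8%, 48.1% and 44.8% of the summed FPKM of the 77, so that replicate 1 was low in the upper and high in the other unigenes.

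Cluster-199519.120100 had the highest mean of the set. Its FPKM was 29912, 43062 and 35840 in S36 replicates 1 to 3, 34299, 28706 and 45575 in those of S40, 33182, 34595 and 21222 in those of S43, and 21753, 17059 and 17182 in those of S45. It was the highest of the 77 in 7 of the 12 libraries and ranked 1 to 3 among all unigenes in each. The S45 libraries lay below all of S36 and S40 but overlapped S43 through its replicate 3. Its stage means were 36271 ± 6586 at S36 (SD, n = 3) and 19437 ± 3276 at S45 (n = 2), a ratio of 0.54.

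Cluster-199519.119636 was second by mean FPKM. It had 22789, 29758 and 28260 at S36, 27191, 22660 and 45991 at S40, 21325, 33070 and 28713 at S43, and 18712, 15017 and 15099 at S45. The 45991 of S40 replicate 3 was the highest value of any of the 77 in any library, and without that library the S40 values lay within the S36 range but for 22660. Every S45 library was below every other library.

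For Cluster-199519.120143 the values were 26294, 34656 and 31708 at S36, 29886, 23900 and 33845 at S40, 35052, 22417 and 17766 at S43, and 15834, 17328 and 17262 at S45. It was the highest of the 77 in S43 replicate 1 and in S45 replicates 2 and 3. Here too every S45 library was below every library of the other stages, with S43 replicate 3 next above them.

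Next was Cluster-199519.120282, with 24465, 26897 and 29027 at S36, 26842, 22898 and 30082 at S40, 28756, 17052 and 17828 at S43, and 14601, 17212 and 17203 at S45. S45 and S43 overlapped, and S45 lay below S36 and S40. These 4 unigenes were the 4 highest of the set in each of the 12 libraries, and their order changed only among themselves.

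The fifth and sixth had a highest library 2.78 and 3.79 times the lowest, against 3.06 for the second, Cluster-199519.119636. Cluster-199519.120380 had 13622, 10763 and 18553 at S36, 18296, 17935 and 21809 at S40, 16964, 12422 and 7842 at S43, and 8506, 9317 and 9327 at S45. Its lowest value was that of S43 replicate 3, and S36 replicate 2 was nearer to S45 than to S40. Cluster-199519.120534 had 14064, 19168 and 14830 at S36, 14379, 12311 and 19995 at S40, 11751, 11327 and 9160 at S43, and 7507, 5282 and 5318 at S45. Its stages did not overlap from S40 onward, and S45 stood at 0.40 of S36, the lowest such ratio in the set (16021 ± 2753 at S36 with n = 3, 6404 ± 1560 at S45 with n = 2, SD).

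Cluster-199519.120386, the last of the 7, had a different course. It had 8466, 11234 and 10829 at S36, 9845, 6999 and 11680 at S40, 15002, 12029 and 11060 at S43, and 9184, 7346 and 7468 at S45. Its mean was highest at S43, where replicate 3 lay within the S36 and S40 ranges, and the S45 libraries overlapped those of S36 and S40. On the deposited scale all 7 upper unigenes had their lowest mean at S45 and a ratio of S45 to S36 from 0.40 to 0.82, with S45 lower than S36 also after rescaling to equal totals and after median-ratio scaling, but after quantile normalization this was so for 2 of the 7.

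**Figure D3:**
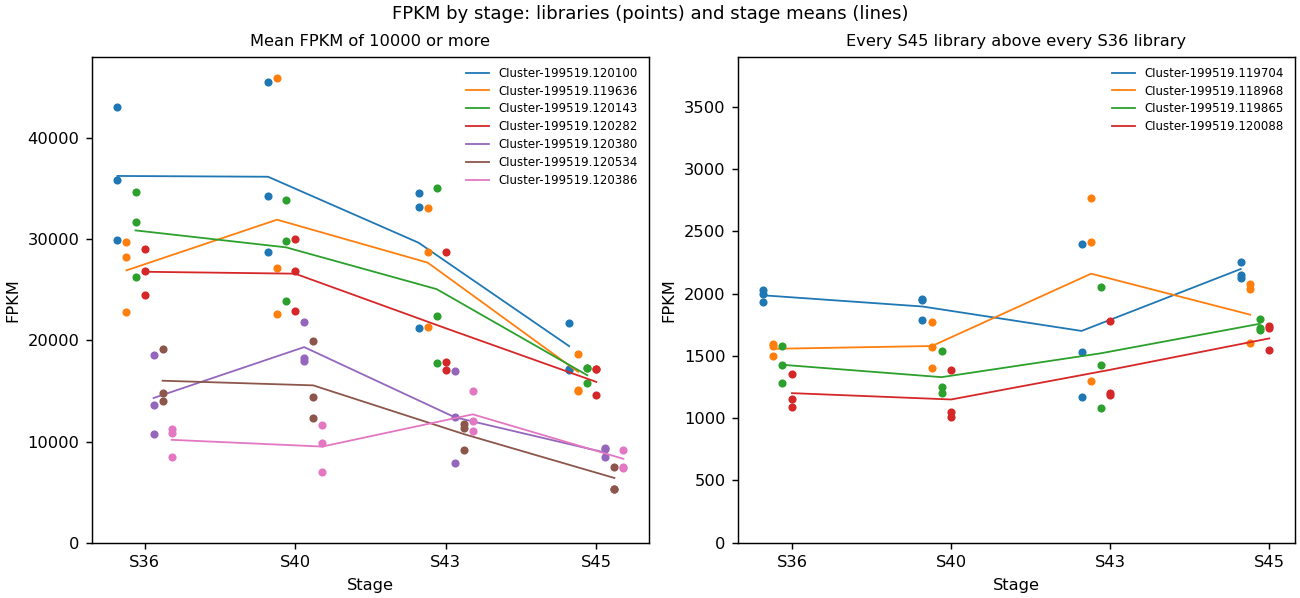
FPKM (y axis, from 0) of single unigenes by stage (x axis), with points for the 3 libraries and lines through the stage means. The 7 upper unigenes (left) are lowest at S45 on the deposited scale, which after quantile normalization held for 2 of them, and the 4 unigenes whose S45 libraries all lie above the S36 libraries (right) differ by less than 1.5-fold in stage means of S36 and S45.

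The narrowest range of the set belonged to Cluster-199519.119525, with a highest library 1.47 times the lowest. Its FPKM was 2878, 2258 and 2658 at S36, 2506, 2254 and 1999.5 at S40, 2556, 2223 and 2830 at S43, and 2055, 1989 and 1954 at S45. Although narrow, these values are ordered, with S45 below S36 and S43 and overlapping S40 only.

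Second narrowest was Cluster-199519.120112, at a ratio of 1.49, with 8075, 8721 and 7559 at S36, 7729, 8014 and 7874 at S40, 7078, 6500 and 7641 at S43, and 8676, 9631 and 9670 at S45. It was the sole unigene of the set in which every S45 library was above every S43 library, against 2.88% of the 139 unigenes with a mean FPKM of 1000 or more and 16.9% of the 123813 with an FPKM of 1 or more in at least 3 libraries. Its S45 and S36 libraries overlapped at 8676 and 8721.

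The third narrowest was Cluster-199519.198936, which also stands alone by its number in the cluster. It had 4244, 4572 and 4432 at S36, 4477, 4559 and 4241 at S40, 4063, 3105 and 4690 at S43, and 4616, 4431 and 4527 at S45. Without S43 replicate 2 all values lay between 4063 and 4690. Its stage means ran from 3953 to 4547 and its stages overlapped throughout.

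By stage mean, 50 of the 77 peaked at S36, 4 at S40, 17 at S43 and 6 at S45. S45 was the lowest stage of 52, S40 of 18, S43 of 5 and S36 of 2. The same counts are not given for other unigenes, so neither a peak at S36 nor a low at S45 is read as a trait of the 77. Among the 70 with a mean FPKM under 10000, S36 replicate 1 was the highest of all 12 libraries in 42. S36 replicates 2 and 3 were so in 1 each. How far the peak at S36 rests on replicate 1 was not tested. The 4 highest at S40 were Cluster-199519.119636, Cluster-199519.120380, Cluster-199519.120019 and Cluster-199519.120182, and the 2 lowest at S36 were Cluster-199519.119707 and Cluster-199519.118968. Of the 24 possible orders of the 4 stages 14 occurred, and the most frequent was S36 over S43 over S40 over S45, found in 27, followed by S36 over S40 over S43 over S45 in 14. Neither the top nor the middle of these orders was resolved by the libraries in most of the 77. S43 lay below S36 without overlap in 6 of the 77 and above in none, with no background given. S40 lay below S36 without overlap in 7 and above in none. S40 and S43 overlapped in all but 8 of the 77. S43 was lower without overlap in Cluster-199519.120380, Cluster-199519.120534, Cluster-199519.120112 and Cluster-199519.120489, and higher in Cluster-199519.119997, Cluster-199519.121072, Cluster-199519.120187 and Cluster-199519.120097. The corresponding background was 13.7% in each direction among the 139 unigenes with a mean FPKM of 1000 or more, and 10.4% lower and 6.73% higher among the 123813.

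This order differed with the scale. With each library rescaled to an equal total, 67 were highest at S36 and 3 at S45, and with median-ratio scaling 53 and 0, with 20 at S43. After quantile normalization 41 were highest at S36 and 22 at S45, and the lowest mean was at S40 for 31 and at S45 for 23. The median log2 difference between S45 and S36 over all 123813 unigenes was 0.56 on the deposited scale, 0.36 after rescaling to equal totals, 0.23 under median-ratio scaling and 0.029 after quantile normalization.

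Between S36 and S45 the mean was lower at S45 for 68 of the 77 and higher for 9 on the deposited scale, and lower for 74, 77 and 47 after rescaling to equal totals, median-ratio scaling and quantile normalization. In 52 of the 77, the S45 libraries all lay below the S36 libraries, and in 4 they all lay above. For the same 77 these counts were 69 and 0 at equal totals, 73 and 0 under median-ratio scaling and 28 and 16 after quantile normalization. On the deposited scale the share below was 56.8% among the 139 unigenes with a mean FPKM of 1000 or more, which include the 77, and 4.7% among the 123813, while the share above was 19.4% and 27.3%. Such shares are given for the deposited scale only, so the counts on the other scales stand without a background. The rule used these libraries and limits how far they can differ, so nothing is read from the counts.

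The median ratio of S45 to S36 over the 77 was 0.75, and the single ratios ran from 0.40 to 1.37. On the deposited scale, as log2(FPKM + 1), the median difference was -0.41, against 0.56 over all 123813 unigenes. Each of the 77 was below that median of all. Unigenes that reach an FPKM of 1 in the S45 libraries alone pass the filter of this background, which can raise its median. After quantile normalization the medians were -0.055 and 0.029. Over the 139 unigenes with a mean FPKM of 1000 or more, which include the 77, the median on the deposited scale was -0.37, close to that of the 77. It was -0.75 for the 7 upper unigenes, whose direction turned after quantile normalization in 5, and -0.38 for the other 70. The 62 other unigenes with a mean FPKM of 1000 or more ranged from -4.49 to 5.52, with 33 of them lower at S45, a width that the rule kept out of the 77.

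**Figure D4:**
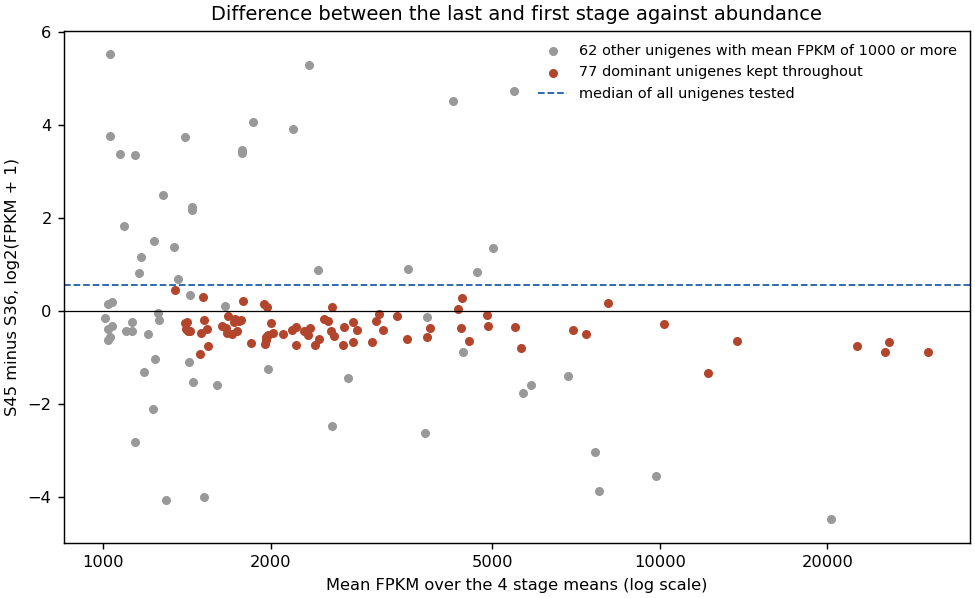
Difference between S45 and S36 (y axis, log2(FPKM + 1) stage means) against mean FPKM (x axis, log scale) for the 139 unigenes with a mean of 1000 or more; the dashed line is the median of all unigenes tested, 0.56. The 77 (red) lie between -1.33 and 0.45 on the deposited scale, most below 0; their median was -0.055 after quantile normalization, and the 7 upper ones turned in 5 cases.

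Between consecutive stages the libraries mostly overlapped. For S36 and S40 this is partly given by the close pair, S36 replicate 3 and S40 replicate 1. S40 was below S36 without overlap in 7 of the 77 and above in none, against 7.91% and 11.5% of the 139 and 2.07% and 6.21% of the 123813. The means of 70 were nonetheless lower at S40 than at S36 on the deposited scale, with a median ratio of 0.82, and no matching count for other unigenes is given. S45 was below S43 without overlap in 22 and above in 1, against 31.7% and 2.88% of the 139 and 2.47% and 16.9% of the 123813. S43 was lower than S40 in mean for 6 of the 7 upper unigenes and higher for 53 of the other 70, a contrast between the groups that was seen after the groups were made and was not tested.

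Among the 70, Cluster-199519.119574 had the lowest ratio of S45 to S36, 0.52. It had 2631, 1842 and 1797 FPKM at S36, 1704, 1246 and 1460 at S40, 1264, 1085 and 1603 at S43, and 1142, 1047 and 1032 at S45. S40 lay below S36 without overlap, and S45 below S36 and S40. Among the 77 by stage mean it went from place 53 at S36 to place 77 at S45, the longest way down.

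The 4 unigenes with every S45 library above every S36 library held places 53, 55, 69 and 77 by mean FPKM. Cluster-199519.120088 had the highest ratio of the set, 1.37, and the lowest mean. Its FPKM was 1355, 1155 and 1094 at S36, 1054, 1385 and 1012 at S40, 1201, 1187 and 1779 at S43, and 1548, 1743 and 1723 at S45. The stage means were 1201 ± 136 (SD, n = 3) and 1641 ± 130 (n = 2), and S43 replicate 3 stood with the S45 libraries.

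Cluster-199519.119865, with a ratio of 1.23, had 1583, 1425 and 1279 at S36, 1254, 1537 and 1198 at S40, 1429, 1081 and 2053 at S43, and 1800, 1709 and 1724 at S45. Again the highest value was that of S43 replicate 3. By stage mean it went from place 76 at S36 to place 48 at S45, the longest way up.

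Cluster-199519.118968 and Cluster-199519.119704, the other two of the 4, had ratios of 1.18 and 1.11. The former had 1578, 1501 and 1593 at S36 and 1604, 2040 and 2077 at S45, where replicate 1 lay just above the S36 libraries. Its mean was highest at S43, with 2770, 1295 and 2417. The latter had 1932, 2030 and 1998 at S36 and 2254, 2129 and 2154 at S45, with 1532, 1174 and 2397 at S43. In none of the 4 was S45 above S43 without overlap. After rescaling to equal totals none of the 77 had all S45 libraries above those of S36, and after quantile normalization 16 had, with no background given on these scales.

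A higher mean at S45 rested on a single sample in Cluster-199519.120427. It had 4502, 3846 and 3812 at S36, 3598, 4085 and 3164 at S40, 5058, 4846 and 4081 at S43, and 3345, 7242 and 7233 at S45, where replicates 2 and 3 count as 1 sample. Its ratio of S45 to S36 was 1.31 with stage means of 4053 ± 389 (SD, n = 3) and 5292 ± 2752 (n = 2), yet S45 replicate 1 lay below every S36 library.

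Cluster-199519.119968 and Cluster-199519.120889, chosen after their values were seen, also had S45 replicates 2 and 3 more than 1.5 times above replicate 1. The former had 2822 in S45 replicate 1 against 5523 and 5413, with 8676, 3468 and 2800 at S43. The latter had 1172 against 2314 and 2148. In the other 74 the samples of S45 were within 1.5-fold of each other.

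Library by library, the upper 7 and the other 70 leaned in opposite ways within the early stages. S36 replicate 1 was the highest S36 library in 61 of the 70 and the lowest in 6 of the 7. S40 replicate 3 was the lowest S40 library in 64 of the 70 and the highest in 7 of the 7. At S43 replicate 3 was the highest in 58 of the 70 and the lowest in 5 of the 7, and replicate 2 the lowest in 66 of the 70. These counts are on the deposited scale and no share over other unigenes is given. They are therefore not read as a trait of the 77. The summed FPKM of the 70 was 240038, 189098 and 207882 in the S36 libraries and that of the 7 was 139610, 175540 and 169046, so a library high in the former was low in the latter. FPKM is scaled by library size, although total FPKM differed between libraries. How far the higher values of some of the 77 lower those of the others was not tested.

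**Figure D5:**
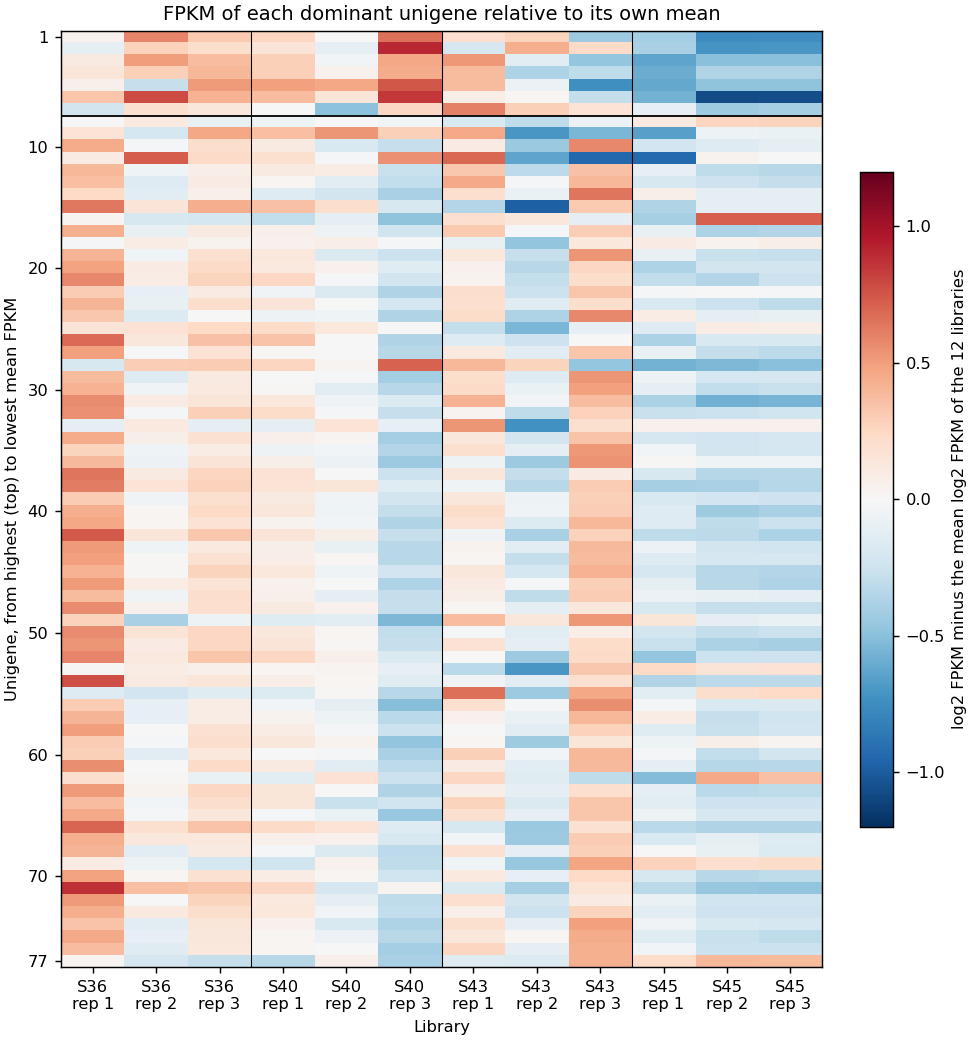
FPKM of each of the 77 unigenes (rows, from highest to lowest mean) in each library (columns), as log2 FPKM minus the mean log2 FPKM of that unigene over the 12 libraries; the line separates the 7 upper unigenes. S36 replicate 1 and S43 replicate 3 are high and S40 replicate 3 low over most of the 70, and S40 replicate 3 is high over all of the 7.

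The order of the 77 by abundance was similar in all libraries. The rule favours this, since it keeps each unigene under a 4-fold range while means over the set ran from 1345 to 30392. The similarity is therefore a description, and nothing is read from it. Across the 77, which are not independent replicates, Spearman's rho between libraries ran from 0.907 to 0.998 within stages (12 pairs) and from 0.837 to 0.997 between stages (54 pairs). The upper ends were the close pairs, S45 replicates 2 and 3 within stages and S36 replicate 3 with S40 replicate 1 between stages. Without these pairs the highest rho was 0.9843 within and 0.9875 between stages. Between stage means rho was 0.984 for S36 and S40, which hold the close S36 replicate 3 and S40 replicate 1. It was 0.958 for S40 and S43, 0.948 for S43 and S45 and 0.903 for S36 and S45. From S36 to S45, 20 of the 77 moved by 10 places or more, 8 up and 12 down.

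The 12 unigenes at 1000 FPKM or more in every library that missed the limit on range give the contrast. Their share of total FPKM in stage order was 9.55% ± 2.13, 8.62% ± 2.87, 3.67% ± 1.15 and 2.62% ± 0.39 (SD, n = 3, but n = 2 for S45). Their mean was lower at S45 than at S36 for 9 and higher for 3, with ratios from 0.043 to 2.47. These 12 were set apart by their wide range over the libraries, which favours wider differences between stages than the rule allows in the 77. The contrast is therefore a description.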

How the data were processed

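Messenger RNA of 12 dorsal muscle libraries was sequenced by the authors in paired-end mode on an Illumina instrument, per the labels' protocols, after Trizol extraction, poly-T purification and random priming. The authors deposited a single table of FPKM to 2 decimals with a column per library, per the file headers; the sources used here name no assembler, aligner or counting tool. Stages and replicate numbers come from the sample titles.

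Members needed an FPKM of at least 1000 in all 12 libraries and a highest library under 4 times the lowest. They and the rules for naming unigenes were chosen with earlier results of these data known. Named with every library are the 6 highest by mean, the 3 highest and 3 lowest ratios of S45 to S36 and the 3 narrowest ranges; others named were chosen after their values were seen. Means and SDs count S45 replicates 2 and 3 as 1 sample. Log2 differences used a pseudocount of 1. Backgrounds used unigenes with an FPKM of 1 or more in at least 3 libraries, and those with a mean of at least 1000. No test was run, since the rule used every library. Replicates are labelled biological, and part of their spread may be technical. Alternatives were 3 other scalings, other limits of the rule, other pseudocounts, no low filter, and libraries left out. Member finding was tested on simulated data. Python 3.11.15, numpy 2.4.6, pandas 2.3.3 and matplotlib 3.10.9 were used. Depth is unknown, so no counting interval can be given.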

Additional observations from a re-analysis of the deposited data

How the results depend on the processing

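The number of unigenes under the rule was 50 after rescaling to equal totals, 58 under median-ratio scaling, 81 after quantile normalization, 30 with a lowest FPKM of 2000 and 112 with 500, and 77 to 83 with a library left out. With the rule reapplied, the difference in share between S45 and S36, -12.4 percentage points, was -10.1 after rescaling to equal totals and -7.30 with median-ratio scaling. These values differ because other unigenes met the rule. With the 77 kept, both scalings left the difference at -12.4, since a factor per library does not alter a share. Other limits gave -9.51 with a lowest FPKM of 2000, and -10.0 and -14.5 with ratios under 3 and 5. The difference reversed to 0.80 with the rule reapplied after quantile normalization (1.51 with the 77 kept), which by construction gives every library the same values. With a library left out it ran from -13.4 to -11.5. The count with every S45 library below every S36 library, 52 of 77, was 31 of 81 with the rule reapplied after quantile normalization (28 with the 77 kept). It was 21 of 30 with a lowest FPKM of 2000, and 52 to 65 of 77 to 83 unigenes with a library left out. Leaving a library out cannot lower this count, since the rule and the lack of overlap both become easier to meet. No background is given for the counts under these alternatives. With the 77 kept, the median log2 difference, -0.41, was -1.03 under median-ratio scaling and -0.055 after quantile normalization. With a library left out it ran from -0.52 to -0.29. Counting S45 replicates 2 and 3 as 2 samples gave -12.1 percentage points and a median of -0.41. With their mean as 1 library, an alternative chosen after seeing the data, the count without overlap was 52, and this change too cannot lower it. Leaving out both S36 replicate 3 and S40 replicate 1 gave 77 unigenes and -12.5 percentage points. Without a filter, S45 was below S36 without overlap in 2.42% of 423794 unigenes. No paired analysis was possible because no result comes from a test and the labels do not say that a replicate number is shared across stages. Read depth is unknown, which limits every value by an unstated counting error.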

Other observations

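Just below the limit, 35 further unigenes had a lowest library from 500 to 1000 FPKM and a highest under 4 times that. Their share of total FPKM was 3.07% ± 0.24 at S36 (SD, n = 3) and 2.16% ± 0.13 at S45 (n = 2). On the deposited scale their mean was lower at S45 than at S36 for 27 and higher for 8, and in 17 the S45 libraries all lay below the S36 libraries, against 4.7% of the 123813 unigenes with an FPKM of 1 or more in at least 3 libraries and 56.8% of the 139 with a mean of 1000 or more.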
